A study of Mus musculus with 4 samples.

Results

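Left ventricles of STIM1-deficient (STIM1KO) and wild-type (WT) mice were compared after 4 weeks of pressure overload, on 2 of the 4 arrays of the series, those titled STIM1KO TAC and WT TAC. TAC, transverse aortic constriction, narrows the aortic arch around a wire of 0.3 mm and raises the load on the left ventricle. All mice were male C57BL/6, operated at 10 weeks of age, with hearts taken at 14 weeks. The other 2 arrays, WT sham and STIM1KO sham, came from mice operated without banding and give the background level of each gene. Heart weight over body weight, given in the labels as a group average without a unit, was 6.7 in WT TAC and 4.9 in STIM1KO TAC, against 4.1 in WT sham and 4.5 in STIM1KO sham. The labels do not say how STIM1 was removed, in which cells, or whether an array held RNA of 1 mouse or of a pool. There was 1 array per group, so no difference below has a replicate, an error or a test, and each compares arrays rather than genotypes.

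STIM1 senses the calcium content of the sarco/endoplasmic reticulum, and on store depletion it gathers at junctions with the plasma membrane, where it gates the Orai pore proteins. Calcium entering this way can activate calcineurin, which dephosphorylates NFAT transcription factors, and calmodulin-dependent kinases, which act on MEF2 through class II histone deacetylases. Both routes are known from hypertrophic growth of heart muscle, in which fetal and stress genes such as those of the natriuretic peptides are switched on.

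The arrays were checked first. Of 23473 probes, between 21115 and 21782 had a value on an array, and 7020 named genes had a value on all arrays and lay at or above an intensity of 29.3, the filter used here. Of 14 ventricular cardiomyocyte markers 12 passed the filter, with a summed intensity of 261169 to 300439, and of 8 atrial markers 5 did, with a summed intensity of 1548 to 2007 that is mostly Nppa. The atrial markers Myl7 (8.10 to 11.8) and Sln (1.70 to 3.96) were below the filter. Bmp10, an atrial marker that passed it, lay between 85.4 and 177, with its highest value in STIM1KO TAC. Whether atrial tissue was included was not tested. The 4 intensities of a gene are given below with WT first and STIM1KO second, each as sham and then TAC, after quantile normalization. A difference is STIM1KO TAC minus WT TAC on the log2 scale unless another pair is named. Over these 7020 genes its median was 0.01, with 51.1% of genes above 0 and 48.8% below. Its SD across genes was 0.42, against 0.29 between the sham arrays. For STIM1KO TAC minus STIM1KO sham the SD was 0.42 as well, and for WT TAC minus WT sham it was 0.25. The STIM1KO TAC array was thus in both of the wider comparisons. How far a wide spread of that array, rather than genotype, gives the differences below was not tested.

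At 2-fold or more, 62 genes (0.883% of those tested) were higher on the STIM1KO TAC array and 76 (1.08%) were lower. Between the sham arrays these counts were 2 (0.0285%) and 37 (0.527%). Dimmer genes supplied more of them. Split by level into 4 groups of 1755 genes, 3.19% of the dimmest group were at 2-fold either way and 1.37% of the brightest. Probes of 1 gene often differed in sign. Of 53 genes with 2 or more probes above the filter, 28 had the same sign in all probes (52.8%), 2 had a probe at 2-fold and 0 had all probes at 2-fold. The median gap between probes of 1 gene was 0.37, close to the SD of 0.42 across all genes. Differences of about that size below, each read from the brightest probe of a gene, carry this limit. Of the 138 genes at 2-fold, 134 rest on 1 probe.

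**Figure D1:**
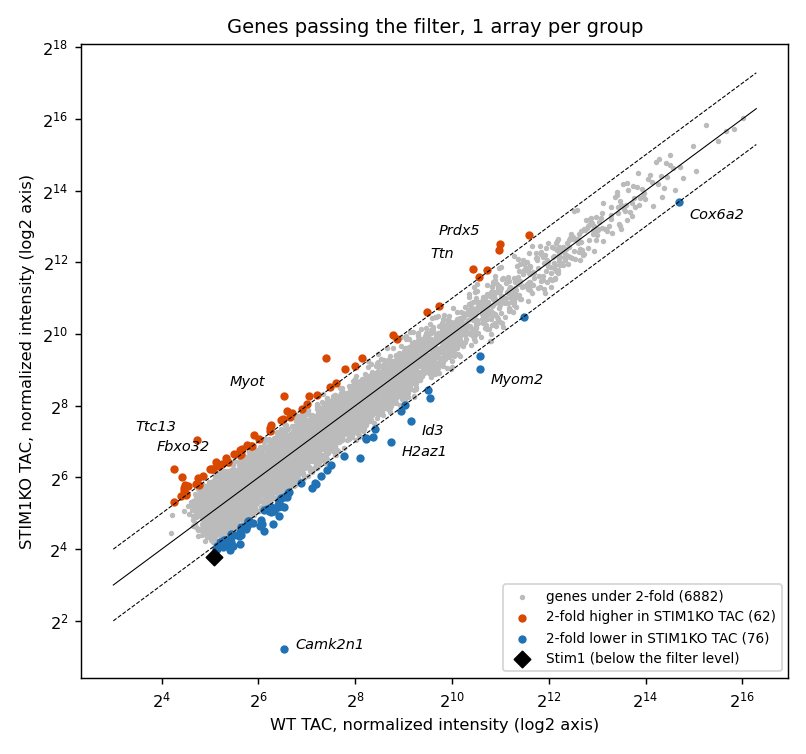
Normalized intensity of each of the 7020 genes on the WT TAC array (x) and the STIM1KO TAC array (y), both on log2 axes, with the line of equality and dashed lines at 2-fold. The 62 genes above and the 76 below the dashed lines are coloured. Stim1 is added although it lies below the filter, and Camk2n1 stands alone at the bottom.

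Stim1 was lower on the knockout arrays. Its probe read 41.6, 33.9, 20.7 and 13.8, a difference of -1.30 between the TAC arrays and of -1.004 between the sham arrays. Each STIM1KO array was thus below both WT arrays, and none was at 0. The probe lies below the filter, and its place relative to the altered stretch of the gene is not stated in the labels.

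The genes that flank Stim1 on chromosome 7 were read in the order of assembly GRCm38.p6, and were chosen by position after the data had been seen. Among the 10 nearest genes passing the filter on each side, 0 of 20 reached 2-fold, 11 were below 0 and 9 above, and the median difference was -0.07. On the near side after Stim1 the first 3 were all lower. Rrm1, a subunit of ribonucleotide reductase, read 82.7, 76.7, 68.2 and 46.4 (-0.73). Trim21, a cytosolic antibody receptor, read 45.8, 29.8, 34.8 and 18.7 (-0.67), and the olfactory receptor symbol Olfr544 between them differed by -0.70. On the side before Stim1 3 of 10 were below 0, and on the side after it 8 of 10.

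Among the partners of STIM1, Orai1 was close to equal on the TAC arrays and the others differed by less than 2-fold. Of 19 store-operated calcium entry genes 9 passed the filter, 3 above and 6 below 0, with a median of -0.03 (-0.19 without the filter on dim genes). Orai1, the main pore subunit, read 72.8, 90.7, 83.6 and 90.0 (-0.01). Orai3 read 64.1, 79.2, 70.4 and 62.5 (-0.34), and here WT TAC was the highest array. The other store sensor, Stim2, was below the filter at 28.0, 25.7, 25.3 and 19.04 (-0.43). The cytosolic regulators of the channel went opposite ways, with 0.59 for Cracr2a and -0.56 for Cracr2b. Cracr2a was lowest on WT sham (27.6) and highest on STIM1KO TAC (70.4).

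The signalling genes downstream of calcium entry had medians near 0, and 1 gene among them stood out. Of 12 calcineurin and NFAT genes 8 were above and 4 below 0 (median 0.09). Rcan1, a calcineurin inhibitor that is itself induced through NFAT, read 277, 292, 372 and 283 (-0.04), so that STIM1KO sham was the array that stood out. Homer2, a scaffold protein that binds NFAT, differed by -0.55, and the catalytic subunits Ppp3cb and Ppp3cc by 0.25 and -0.38. Of the 9 MEF2 and class II histone deacetylase genes 4 were above and 5 below 0, among them Hdac5, a brake on MEF2, at -0.55 and the growth-related factor Tead1 at -0.74.

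That gene was Camk2n1, which encodes an endogenous protein inhibitor of the kinase CaMKII. It read 90.5, 92.4, 111 and 2.31, a difference of -5.32, the largest of all genes passing the filter in absolute size. The other arrays lay between 90.5 and 111, and STIM1KO TAC alone was low. Its intensity there was under 5.38, the first quartile of the values deposited for that array, and with 5.49 units added before log2 the difference was -3.65. The gene has 1 probe, and no second measurement stands beside it. Camk2d, the main cardiac gene of the kinase itself, read 186, 189, 182 and 154 (-0.29). It was lowest on STIM1KO TAC, just past the first quartile of all genes (-0.27). Of the 9 CaMKII and calmodulin genes 4 were above and 5 below 0 (median -0.03).

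**Figure D2:**
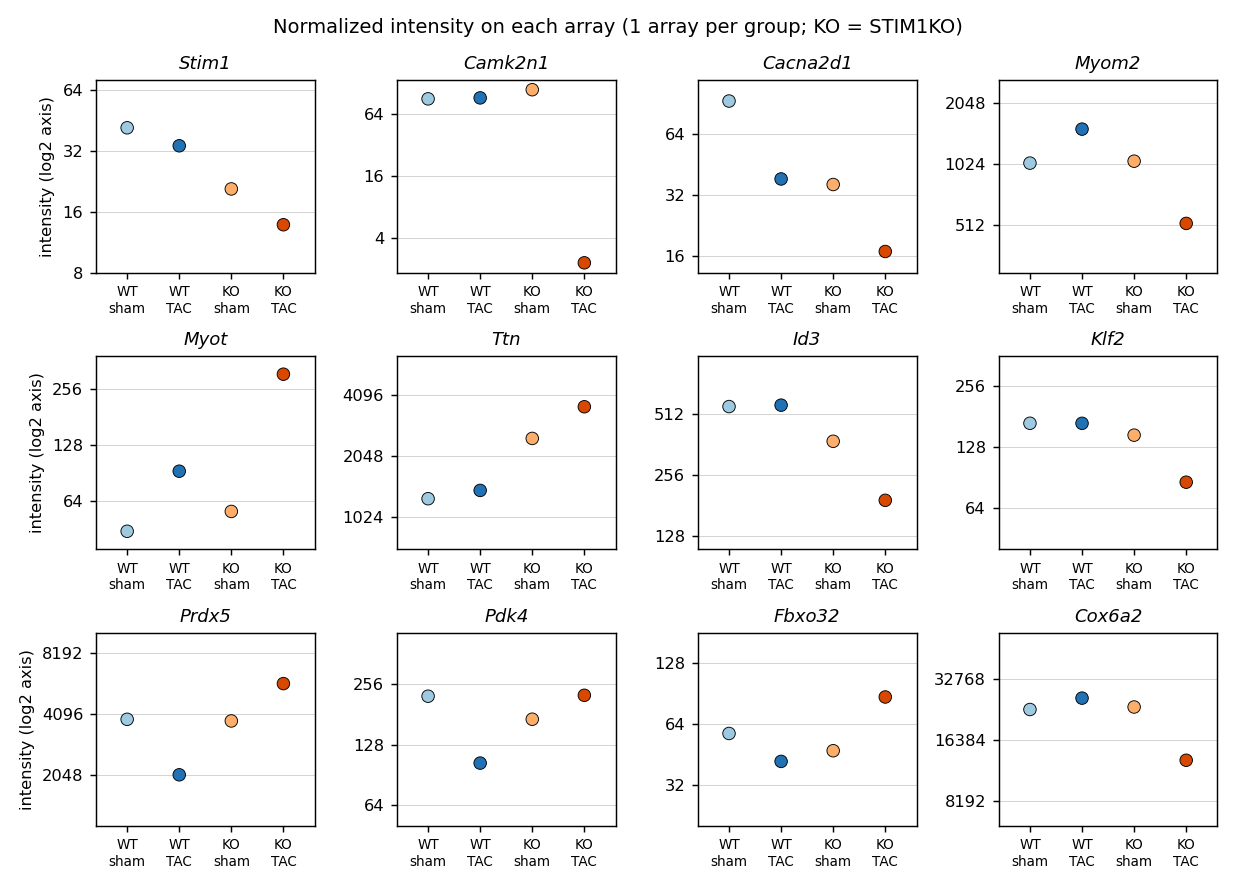
Normalized intensity (log2 axes, each panel with its own range) of 12 genes on the 4 arrays, 1 point per array and no error bar, since each group had 1 array. Stim1 is lower on both STIM1KO arrays, Camk2n1 is low on STIM1KO TAC alone, and Prdx5 and Pdk4 are low on WT TAC.

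Several markers of hypertrophy were lower on the STIM1KO TAC array than on WT TAC, each by less than 2-fold. Nppb, the B-type natriuretic peptide, read 2535, 3778, 3045 and 2919 (-0.37). Nppa, the atrial peptide, read 1422, 1684, 1249 and 1136 (-0.57), and Myh7, the slow myosin heavy chain, 50.6, 76.3, 70.2 and 46.5 (-0.72). For these 3 genes WT TAC was the highest array, and for Nppa and Myh7 STIM1KO TAC was the lowest. Ankrd1, a stretch-responsive protein of the sarcomere, was lowest on STIM1KO TAC as well (8246, 6415, 7483 and 4267, -0.59), but there WT TAC was below WT sham. The list did not follow these genes as a whole. Of 20 hypertrophy and fetal genes 8 were above and 12 below 0 (median -0.04). Acta1, skeletal actin, read 1881, 706, 1973 and 688 (-0.04), low on both TAC arrays. Myh6, the fast adult myosin, was at -0.28 and Atp2a2, which pumps calcium back into its store, at -0.06.

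Sarcomere genes differed in both directions. Those at 2-fold were Myot, Myom2 and Ttn. Myom2, the M-band protein M-protein, read 1033, 1521, 1056 and 520 (-1.55), highest on WT TAC and lowest on STIM1KO TAC. Its relative Myom1 differed the other way, by 0.49. Myot (myotilin, a Z-disc protein) read 43.8, 92.1, 55.9 and 307, 3.33-fold higher on STIM1KO TAC than on WT TAC, and was higher on the TAC than on the sham array of each genotype. Of 19 Z-disc and desmin genes 11 were above and 8 below 0 (median 0.11). Des, the intermediate filament around the Z-disc, was at 0.71 and Csrp3, a stretch sensor, at 0.56, whereas the small heat shock proteins Hspb1 and Hspb7 were at -0.64 and -0.61.

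For titin the probes went different ways. The brightest probe of Ttn, the molecular spring of the sarcomere, read 1264, 1389, 2510 and 3599 (1.37), with both STIM1KO arrays above both WT arrays. A second Ttn probe above the filter read 77.1, 74.6, 79.0 and 62.3 (-0.26), and a dim one, at 3.29 to 5.19, differed by -0.25. The gene is long and has many splice forms, and which of them a probe reports was not tested.

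Thin filament genes were mostly above 0, at 10 of 15 with a median of 0.17, but the sham arrays gave a median of 0.12 for them as well. Tnnt2, cardiac troponin T, read 33602, 38715, 38715 and 58086 (0.59), and Tnnc1, troponin C, 22702, 23407, 25893 and 32397 (0.47). Both were highest on STIM1KO TAC. The 17 intercalated disc genes, which couple neighbouring muscle cells, were more one-sided, at 15 above and 2 below 0 with a median of 0.18 (0.11 between the sham arrays). Cdh2, N-cadherin, read 1473, 1427, 1844 and 2305 (0.69). Ctnna3, a catenin of the same junction, was at 0.62 and Pkp2, plakophilin, at 0.61. Dsc2, a desmosomal cadherin, was an exception at -0.75. None of the 17 was at 2-fold.

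At the surface membrane the larger differences were downward. Of 7 calcium channel, exchanger and pump genes passing the filter 6 were below 0 and 2 of them at 2-fold. Cacna2d1, which encodes the alpha-2/delta subunit that accompanies calcium channel pores, read 93.2, 38.4, 36.1 and 16.8 (-1.19). It was highest on WT sham, lower on each array that had either the banding or the knockout, and lowest on the array with both. Fxyd5, a modulator of the sodium pump, read 170, 170, 148 and 74.5 (-1.19), and Kcne1, an auxiliary subunit of the slow delayed rectifier, 74.4, 88.6, 68.4 and 37.1 (-1.26). Kcnq1, the pore that Kcne1 modifies, was at -0.48. Repolarizing potassium channel genes as a list were balanced, with 3 above and 3 below 0 of the 6 passing the filter. Their median of 0.03 was 0.19 both without the filter and with a filter at the 75th percentile. It turned below 0 with median centring or values as deposited. Of 19 integrin, focal adhesion and dystrophin complex genes 6 were above and 13 below 0, among them the caveolar protein Cav3 at -0.78, dystroglycan (Dag1) at -0.62 and the adhesion kinase Ilk at -0.56. In the sarcoplasmic reticulum 7 genes were above and 9 below 0. Pln, the brake on the calcium pump, was at 0.55 and the release-complex protein triadin (Trdn) at -0.50.

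Modulators of G protein and cyclic AMP signalling held 3 genes at 2-fold, all lower, although the median of the 24 genes was 0.002 and turned below 0 with median centring or values as deposited. Pde4b, a phosphodiesterase that degrades cyclic AMP, read 105, 137, 80.6 and 52.4 (-1.39), highest on WT TAC and lowest on STIM1KO TAC. Rgs5, a regulator of G protein signalling known from pericytes, read 310, 329, 236 and 140 (-1.23). Crhr2, a receptor for the urocortins, read 62.1, 53.7, 66.5 and 23.8 (-1.18). Rgs3, of the same regulator family and outside the list, read 72.9, 67.6, 52.5 and 25.9 (-1.38), and Rgs4 was at -0.73.

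Immediate early genes, which are switched on within minutes to hours by growth factors, stretch and calcium, had the lowest median of the lists with at least 5 genes. The rank was lost under both other filters. Without the filter on dim genes the median was -0.01, against -0.25 for cell cycle genes. With a filter at the 75th percentile it was -0.423, against -0.432 for BMP and Id genes. Of 21 passing the filter, 13 were below 0 and 8 above. The median was -0.36, and the sham arrays gave -0.20 for them. Klf2, a factor induced by flow in endothelium, read 168, 168, 146.5 and 85.8 (-0.97). Ier3 read 306, 524, 331 and 281 (-0.90) and Jun 93.1, 135, 88.7 and 74.9 (-0.85), so that for both WT TAC was the highest and STIM1KO TAC the lowest array. Klf6 read 177, 114, 69.6 and 68.7 (-0.73), low on both STIM1KO arrays. Against this, Ccn1, a matricellular protein, read 71.2, 50.8, 72.5 and 111 and was 2.19-fold higher. Egr1 and Ier2 were at 0.11 and 0.12.

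Promoters of these genes were searched on both strands, over the 250 bases before the RefSeq start, for 3 patterns chosen after the values had been seen. They were TGACG, the core of the cyclic AMP response element bound by CREB, a factor that calcium-dependent kinases can activate; the full element TGACGTCA, which holds that core; and GGAAA, the core bound by NFAT. A promoter was found for 18 of the 21 genes. TGACG was present in 9 of them (50%), against 17.9% of all 27025 promoters and 27.6% of those of genes passing the filter. The full element was present in 2 (11.1%, against 1.62% of all and 2.99% of those of genes passing the filter), and GGAAA in 10 (55.6%, against 55.6% of all). These shares are those of the list, which was not split by direction, so they do not describe the difference between the arrays. Among the 59 of 76 2-fold lower genes with a promoter 29 held GGAAA (49.2%) and 11 TGACG (18.6%). Among the 50 of 62 2-fold higher genes 33 held GGAAA (66.0%) and 11 TGACG (22%). Of genes passing the filter 54.5% held GGAAA and 27.6% TGACG. The 3 immediate early genes with TGACG and the largest differences are printed, since they include both directions: Klf2 and Klf4 were lower (-0.97 and -0.68) and Ccn1 higher (1.13). Capitals mark TGACG or its reverse complement, and the sequences are those of RefSeq, GRCm38.p6, read 5′ to 3′ on the strand of the gene. They lie at chr3:145649986-145650235 on the minus strand (Ccn1), chr8:72318812-72319061 on the plus strand (Klf2) and chr4:55532476-55532725 on the minus strand (Klf4).
Ccn1: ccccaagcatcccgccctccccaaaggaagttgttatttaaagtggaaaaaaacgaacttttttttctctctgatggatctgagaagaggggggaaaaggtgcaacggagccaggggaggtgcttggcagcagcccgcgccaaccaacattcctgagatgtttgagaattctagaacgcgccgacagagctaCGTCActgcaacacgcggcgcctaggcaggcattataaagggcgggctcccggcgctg
Klf2: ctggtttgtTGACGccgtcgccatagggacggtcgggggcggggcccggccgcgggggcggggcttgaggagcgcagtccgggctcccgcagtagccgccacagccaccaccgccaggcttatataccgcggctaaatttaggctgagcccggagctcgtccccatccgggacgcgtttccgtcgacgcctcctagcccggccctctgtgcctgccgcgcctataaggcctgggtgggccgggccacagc
Klf4: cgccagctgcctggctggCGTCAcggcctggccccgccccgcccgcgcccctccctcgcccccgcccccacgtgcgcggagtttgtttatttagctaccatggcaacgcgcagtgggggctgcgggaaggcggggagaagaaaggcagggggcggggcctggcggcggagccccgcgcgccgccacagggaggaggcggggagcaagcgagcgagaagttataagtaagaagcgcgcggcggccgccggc
Each window holds 1 match. A match is a feature of the sequence only, and no binding was measured here.

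Chaperone genes were mostly lower on the STIM1KO TAC array. Of 26 genes 7 were above and 19 below 0. The median was -0.22, against 0.02 between the sham arrays, and none of the 26 was at 2-fold. Hspb1 read 3983, 3802, 3855 and 2439 (-0.64), Hspa4 821, 533, 625 and 349 (-0.61) and Hspa9, the mitochondrial HSP70, 838, 736, 887 and 513 (-0.52). Each was lowest on STIM1KO TAC. Hspa5, the HSP70 of the endoplasmic reticulum, went the other way at 1193, 1313, 1140 and 1847 (0.49). The 22 genes of the unfolded protein and integrated stress response were divided, 10 above and 12 below 0 with a median of -0.005. Xbp1 was at 0.65 and Atf4 at -0.73, although Chac1 and Sesn2, both known targets of the factor that Atf4 encodes, were at 1.31 and 0.74.

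Genes of protein breakdown in muscle had the highest median of the lists with at least 5 genes. Of 16 muscle atrophy and ubiquitin ligase genes 13 were above and 3 below 0. The median was 0.29, against 0.20 between the sham arrays. Fbxo32, which encodes the ligase atrogin-1, read 57.2, 41.6, 47.0 and 86.7 (1.06), lowest on WT TAC and highest on STIM1KO TAC. Trim25, a ligase better known from antiviral sensing, read 51.3, 21.5, 36.4 and 65.1 (1.597). Huwe1 was at 0.69 and Trim54, a member of the MuRF family of ligases, at 0.51. In the proteasome 23 genes were above and 15 below 0, and the sign of the median of 0.08 turned with median centring or values as deposited. Psmb6 read 1309, 1501, 1058 and 3080 (1.04) and Psmb4 3000, 2017, 2209 and 3643 (0.85), while the regulatory subunit Psmd2 was at -0.56. For autophagy the median was 0.03 (17 above and 17 below 0), turning in the same way, and Wipi1, which binds the forming autophagosome, was at -1.12.

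**Figure D3:**
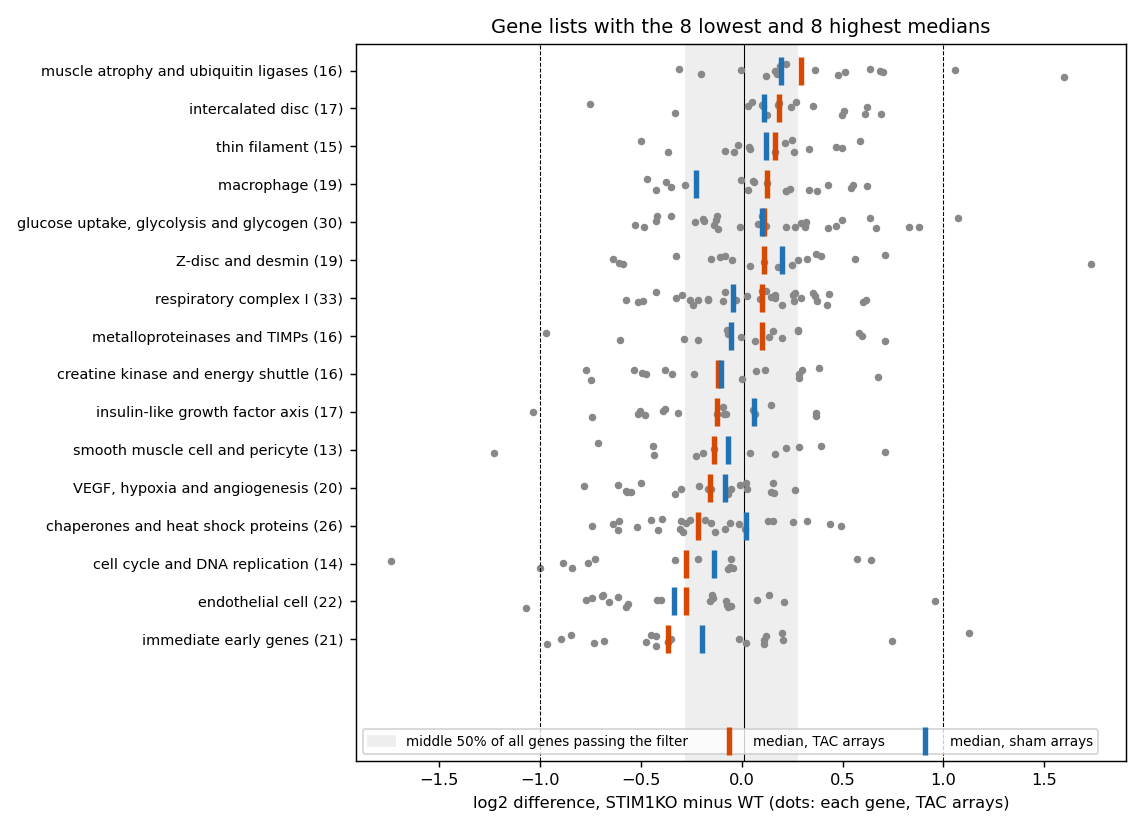
Log2 difference of each gene (grey dots, STIM1KO TAC minus WT TAC) in the 8 lists with the lowest and the 8 with the highest medians among lists with at least 12 genes passing the filter; the number of genes is in parentheses. Orange bars are the medians for the TAC arrays and blue bars those for the sham arrays, and the grey band holds the middle 50% of all 7020 genes. Of the TAC medians, those of immediate early, endothelial and cell cycle genes pass the lower edge of the band, at -0.27, and that of ubiquitin ligases passes the upper edge, at 0.27.

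In metabolism, genes at the entry of glucose carbon stood out singly. Pdk4, the kinase that shuts off pyruvate dehydrogenase, read 222, 104, 171 and 224 (1.11), so that WT TAC was the low array. Phka1, a phosphorylase kinase subunit of muscle, was 2.11-fold higher (29.5, 18.98, 49.0 and 39.97). Eno3, muscle enolase, read 7378, 6158, 6415 and 11320 (0.88), and Ldhb, the heart form of lactate dehydrogenase, 9707, 11840, 12364 and 18800 (0.67). The 30 genes of glucose use had a median of 0.11 (17 above and 13 below 0), close to the 0.10 between the sham arrays. For pyruvate dehydrogenase and the tricarboxylic acid cycle it was 0.08, with Sdhc at 0.78 but citrate synthase (Cs) and Mdh2 at -0.50 and -0.54.

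Fatty acid genes had a median of -0.05, 15 above and 20 below 0. Lpl, which frees fatty acids from blood lipoproteins, was at 0.59, and Ucp2 at -0.83. Their regulators differed in opposite directions. Esrrg, a nuclear receptor of the oxidative programme, read 63.0, 57.4, 76.0 and 118 (1.04), and Ppara, the receptor that drives fatty acid oxidation, 107, 123, 92.5 and 63.2 (-0.96). For the first STIM1KO TAC was the highest array and for the second the lowest.

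Respiratory chain genes gave no common direction. Of 41 genes of complexes II to V 20 were above and 21 below 0 (median -0.004). Cox6a2, the heart and muscle form of a cytochrome oxidase subunit, read 23234, 26444, 23903 and 13038 (-1.02), with 3 arrays close together and STIM1KO TAC low. Atp5a1, the alpha subunit of ATP synthase, read 5227, 5901, 5534 and 11094 (0.91), with the same 3 arrays close together and STIM1KO TAC high. Complex I had 19 genes above and 14 below 0; its median of 0.10 turned to -0.011 with values as deposited and to -0.015 with median centring. Among outer membrane channels Vdac1 was at 0.68 and Vdac2 at -0.77. Prkaa2, a catalytic subunit of the energy sensor AMPK, was at -0.75 and Ckm, the muscle creatine kinase, at -0.50.

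The antioxidant list held 1 gene at 2-fold, Prdx5, a peroxiredoxin of mitochondria and peroxisomes, which read 3855, 2050, 3784 and 5788 (1.50). The sham arrays were alike for it, WT TAC was below them and STIM1KO TAC above. Of the 37 genes 24 were above and 13 below 0. The sign of their median, 0.05, turned with median centring or values as deposited. Gsr was at 0.73 and Txnrd1 at 0.62, which recycle glutathione and thioredoxin, while Hmox2, the constitutive haem oxygenase, was at -0.94.

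In the extracellular matrix, collagens had a median of -0.04 (7 above and 8 below 0) against -0.29 between the sham arrays. Col1a2 read 198, 190, 128 and 317 (0.73) and Col3a1 748, 641, 610 and 593 (-0.11). Col1a1 did not pass the filter (35.5, 31.1, 28.4 and 19.7, -0.66), so the chains of type I collagen differed in opposite directions. Postn, periostin, was at 0.18. Non-collagen matrix genes were 18 above and 18 below 0 (median -0.015). Metalloproteinases and their TIMP inhibitors were 9 above and 7 below 0 (median 0.10). The lowest member of the first list was the proteoglycan decorin (Dcn), at 3279, 2879, 2406 and 1433 (-1.01). That of the second was Timp3, an inhibitor of matrix proteases, at 308, 257, 218 and 131 (-0.97). Both were lowest on STIM1KO TAC and lower on STIM1KO sham than on either WT array.

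TGF-beta genes were 6 above and 8 below 0 (median -0.11). Fstl1, a secreted follistatin-like protein, read 336, 338, 253 and 165 (-1.04) and Smad2, a signal transducer, was at -0.79, whereas the receptor Tgfbr2 was at 0.63. In the BMP branch the 3 Id genes passing the filter were lower. Id3, an inhibitor of differentiation that BMP signals induce, read 556, 565, 375 and 191 (-1.56), with both WT arrays alike and STIM1KO sham between them and STIM1KO TAC. Id2 read 126, 138, 145 and 71.7 (-0.94) and Id1 was at -0.41. The ligand Bmp10 read 85.4, 95.3, 112 and 177 (0.89), and Bmp5, Bmp6 and the receptor Bmpr1a were at 0.69, 0.67 and 0.69, but the ligand Bmp4 was at 0.04. The median of the 14 BMP and Id genes was 0.04. It turned to -0.16 without the filter and -0.43 with the filter at the 75th percentile, and to -0.01 with median centring or values as deposited.

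Most endothelial markers were lower on the STIM1KO than on the WT array of each pair. On the TAC arrays 18 of 22 were below 0 with a median of -0.28, and on the sham arrays 21 of 22 were, with a median of -0.34. The TAC median was -0.16 without the filter on dim genes and -0.15 with a filter at the 75th percentile. Ptprb, the endothelial phosphatase VE-PTP, read 128, 91.8, 81.1 and 43.8 (-1.07), Tie1 554, 408, 349 and 239 (-0.77) and Pecam1 173, 145, 134 and 89.9 (-0.69). Each was highest on WT sham and lowest on STIM1KO TAC. Icam2 was an exception at 218, 120, 118 and 232 (0.96). The summed intensity of the 22 genes was 26912, 24591, 22722 and 21816. In bulk tissue fewer cells of a type and less RNA per cell cannot be told apart, here and for the other cell markers. Genes for growth of vessels leaned the same way, with 14 of 20 VEGF, hypoxia and angiogenesis genes below 0 and a median of -0.16, which was -0.05 both without the filter and with the stricter one. Kdr, the main VEGF receptor, was at -0.57 and Tek, the angiopoietin receptor, at -0.62. Klf2 and Id3, above, are also strongly expressed in endothelium, and the part of cell content in their values was not tested.

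For the other cell types the directions were mixed. The summed intensity of 21 fibroblast markers was 19205, 16264, 16382 and 12827, with 8 above and 13 below 0 and a median of -0.06. Smooth muscle and pericyte markers were 6 above and 7 below 0, with Rgs5 at -1.23, Mcam at -0.71 and Acta2, smooth muscle actin, at -0.44, but Sncg at 0.39 and the smooth muscle protein transgelin (Tagln) at 0.28. Their median of -0.14 turned to 0.05 without the filter on dim genes and to 0.04 with a filter at the 75th percentile. Macrophage markers were 13 above and 6 below 0 on the TAC arrays (median 0.12) and 2 above and 17 below 0 on the sham arrays (median -0.23). Ctss, a lysosomal protease of phagocytes, read 60.2, 58.4, 52.0 and 89.9 (0.62) and Lgals3, galectin-3, 70.4, 53.5, 53.7 and 78.2 (0.55), but Cd68 was at -0.38 and Adgre1 was below the filter (8.24 to 12.6). Few blood cell markers passed the filter. They were 1 of 21 lymphocyte markers, Ighm, an immunoglobulin heavy chain (0.83), 2 of 11 neutrophil markers, S100a9 and Ly6g (0.76 and 0.43), and 2 of 12 erythroid markers, Alas2 and Epb42 (0.77 and 0.59), all above 0. Cd3e was at 1.48 to 2.97 and the leukocyte marker Ptprc at 9.13 to 11.8.

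Cell cycle and DNA replication genes were below 0 in 12 of 14 cases on the TAC arrays (median -0.28) and in 12 of 14 on the sham arrays (median -0.14). H2az1, which encodes the histone variant H2A.Z, read 462, 425, 308 and 127 (-1.74), the second lowest difference of all genes passing the filter. Mcm6, a subunit of the replicative helicase, read 47.6, 42.9, 32.0 and 21.4 (-1.001), and Cdk2 77.9, 73.4, 71.6 and 39.7 (-0.89). For all 3 the order of the arrays from high to low was the one in which the values are given. Cytosolic ribosomal proteins were 17 above and 31 below 0 (median -0.08), and mitochondrial ribosomal proteins 34 above and 38 below 0 with a median of -0.02. In the insulin-like growth factor axis 12 of 17 were below 0 with a median of -0.12. Its lowest member was H19, an imprinted RNA expressed in the fetus, at 44.7, 38.5, 50.2 and 18.8 (-1.04).

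The remaining extremes were genes outside the lists. After Camk2n1 and H2az1 the lowest were Ric3, a chaperone of acetylcholine receptors (-1.596), Babam1, a subunit of a deubiquitinating complex of DNA repair (-1.595), and Id3, given above. The highest was Ttc13, which read 101, 26.5, 62.4 and 131 (2.30). Mfsd6 read 56.4, 19.1, 64.4 and 75.6 (1.99) and Fez2 519, 169, 546 and 643 (1.93). In these 3 genes WT TAC was the array that stood apart. A second, dim Mfsd6 probe differed by 0.17, and of the other 2-fold genes with a further probe, Tdg differed by 1.05 and 0.29 and H2ac4 by -1.19 and 0.62. Some symbols are known mainly from other tissues. Rbp3, a retinal photoreceptor protein, read 871, 845, 1117 and 1777, Calhm4, a placental channel, 3105, 3095, 3565 and 6921, and Il3, a cytokine of T cells, 121, 85.0, 76.4 and 36.0. Which transcript these probes report was not tested.

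Against the mean of the sham arrays, STIM1KO TAC lay farther off than WT TAC in 47 of the 62 higher genes (75.8%) and 74 of the 76 lower ones (97.4%), and in 5096 of all 7020 genes (72.6%). WT TAC lay farther off in the remaining 15 higher and 2 lower genes, Ttc13, Mfsd6, Fez2 and Trim25 among them.

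**Figure D4:**
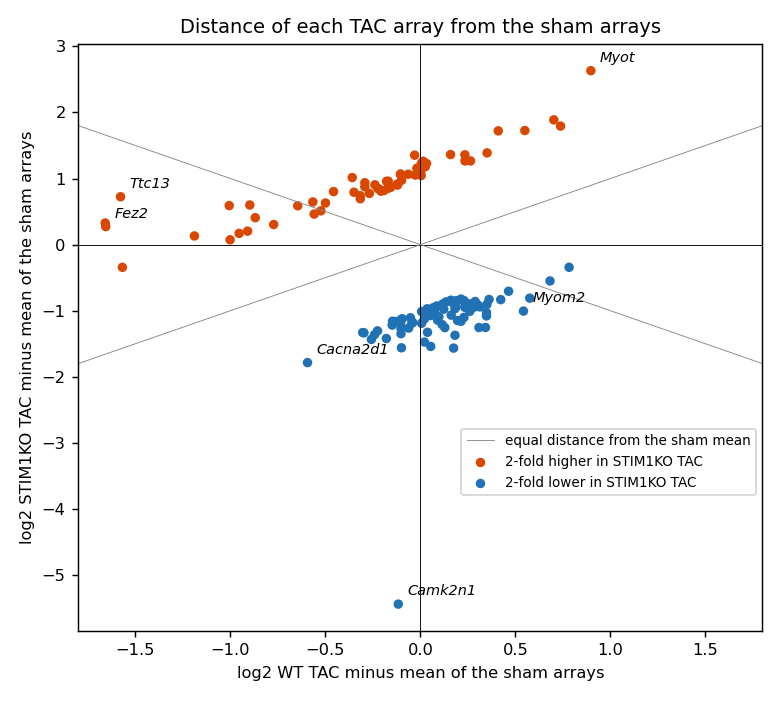
Distance of WT TAC (x) and of STIM1KO TAC (y) from the mean of the sham arrays, in log2, for the 62 genes at 2-fold higher (orange) and the 76 lower (blue) on STIM1KO TAC. Grey lines mark equal distance of both arrays; most points lie above or below them, where STIM1KO TAC is farther off, and 15 higher and 2 lower genes lie between them, where WT TAC is.

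The sham arrays share no array with the TAC arrays and give a second look at genotype, although all 4 were normalized together. Of the 62 higher genes 36 (58.1%) were also above 0 between the sham arrays, with a median of 0.07, against 50.1% of all genes. Of the 76 lower genes 65 (85.5%) were also below 0, with a median of -0.40, against 49.8% of all genes. Over all genes passing the filter, 62.2% had the same sign on both pairs. At 2-fold in the same direction on both pairs were 4 genes, all lower. Cacna2d1 was among them, although with the offset its difference on the TAC arrays was under 2-fold (-0.98). The others were Xlr3b, an X-linked gene, at 73.8, 42.7, 15.3 and 15.9, Necap2, an endocytosis adaptor, at 65.5, 44.2, 18.4 and 17.0, and Adhfe1, a mitochondrial dehydrogenase, at 310, 299, 97.7 and 137. In these 3 genes both STIM1KO arrays were below both WT arrays.

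**Figure D5:**
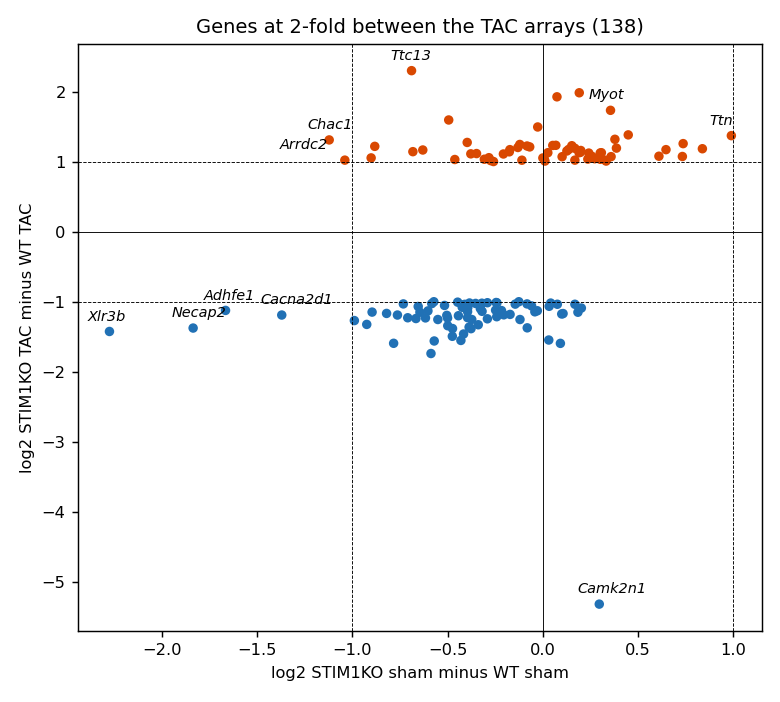
Log2 difference STIM1KO minus WT on the sham arrays (x) and on the TAC arrays (y) for the 138 genes at 2-fold between the TAC arrays, with dashed lines at 2-fold. The blue points lie mostly left of 0 (65 of 76) and the orange points spread to both sides; Xlr3b, Necap2, Adhfe1 and Cacna2d1 are lower on both pairs.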

How the data were processed

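Per the labels, total RNA of the left ventricle was made into amino allyl aRNA, coupled to Cy5 and put on 1 array per group. The values deposited by the authors are linear intensities, 1 for each probe and array, with every array at a median of about 20. Scanner, background correction and why dim cells were left empty: not given in the sources used here. Intensities were taken to log2, and the 19607 probes with a value on all 4 arrays were quantile normalized. Symbols (16631 probes, 16569 matched) were brought up to date through a RefSeq table of GRCm38.p6. The brightest probe stood for a gene, and genes at or above the median level were kept, 7020 of 14039. Differences of log2 values and counts at 2-fold are given; with 1 array per group there is no test, and precision is limited by the number of arrays. The steps were tested on simulated data.

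The comparison, the 55 gene lists and the rules were chosen with earlier results of these data known. Named genes are Stim1, the 25 highest and 25 lowest at 2-fold apart from clone names, list members at 2-fold, up to 6 members of each list with the largest differences, and 10 fixed markers. Other genes named were chosen after their values were seen, namely Orai1, Stim2, Myl7, Sln, Cd3e, Ptprc, Cd68, Adgre1, Id1, Egr1, Ier2, Klf4, Bmp4, Tagln, Adhfe1, Arrdc2, Calhm4, Rbp3, Tdg, H2ac4 and the neighbours of Stim1. Alternatives were other normalizations, filters, an offset, the mean over probes and other fold thresholds. Work was done in Python 3.11.15 with numpy 2.4.6 and pandas 2.3.3.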

Additional observations from a re-analysis of the deposited data

Results flagged for a closer look

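Among the genes at 2-fold between the TAC arrays, 2 were at 2-fold the opposite way between the sham arrays. Chac1, an enzyme that degrades glutathione, read 38.7, 34.8, 17.8 and 86.5 (WT sham and TAC, then STIM1KO sham and TAC), a log2 difference of 1.31 on the TAC arrays and -1.12 on the sham arrays. Arrdc2, an arrestin-domain protein, read 78.1, 48.9, 38.0 and 99.2, a log2 difference of 1.02 on the TAC arrays and -1.04 on the sham arrays. With 1 array per group the difference between the pairs was not tested.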

How the results depend on the processing

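The direction of every named gene at 2-fold was kept under each alternative tried, but all of them re-read the same arrays. A change of filter or an added offset cannot turn the sign of a gene. The mean over probes can alter only the 4 genes at 2-fold with several probes. How far the directions would hold on other arrays was not tested. The counts at 2-fold, 62 higher and 76 lower, became 381 and 375 without the filter and 25 and 21 with a filter at the 75th percentile. They became 443 and 577 at a threshold of 1.5-fold, and 5 and 4 at 3-fold. By construction, each of these settings could move the counts only in the direction seen. With 5.49 units added before log2 the lower count was 46 and the higher 47, and 93 of the 138 genes stayed at 2-fold. Of the 70 genes at 2-fold that the naming rule takes, 9 were under 2-fold with this offset. They were Fbxo32, Phka1, Esrrg, Wipi1, Mcm6, H19, Ptprb, Rrp8 and Cacna2d1. With median centring or values as deposited 3 of the 70 were, namely Psmb6, Esrrg and Mcm6. Median centring gave 45 higher and 98 lower, values as deposited 46 and 97, so the share of higher genes depends on the scaling; 119 and 120 of the 138 stayed at 2-fold. The median over all genes lay between -0.05 and 0.03. The median of complex I turned from 0.10 to -0.015 with median centring and -0.011 with values as deposited. That of the insulin-like growth factor axis turned from -0.12 to 0.067 with the filter at the 75th percentile, and that of smooth muscle and pericytes from -0.14 to 0.049 without a filter and 0.040 with the stricter one; fewer or more genes enter there. No paired analysis was possible because each group had 1 array, and no array could be left out. Of 50 list medians, 10 moved by over 0.1 without the filter and 14 with the stricter one.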

Other observations

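Probes with a value on 1 TAC array only were dim. On WT TAC alone there were 824, with a median intensity of 1.84 and a highest value of 11.9, and on STIM1KO TAC alone 1001, with a median of 1.83 and a highest value of 7.93.

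Of 2117 probes without a symbol here that reached the filter level, 15 (0.709%) were at 2-fold higher on STIM1KO TAC and 29 (1.37%) lower, against 0.883% and 1.08% of named genes.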
